A study of Mus musculus with 10 samples.

Results

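The Ces1 and Ces3 carboxylesterases of the mouse liver were taken by gene name, as 8 genes (Ces1b, Ces1c, Ces1d, Ces1e, Ces1f, Ces1g, Ces3a and Ces3b) of the 16647 genes listed in the liver RNA-Seq count table. All 8 were among the 13219 genes that were tested. The rule names the genes and sets no threshold on a measured value, but the genes were chosen with earlier results of these livers known. RNA was sequenced from the livers of 10 male humanized PXR-CAR-CYP3A4/3A7 mice, in which human PXR, CAR, CYP3A4 and CYP3A7 stand in for mouse genes. All mice, controls included, carried this genotype and were fed a high-fat diet. The control group of 5 mice received the vehicle of DMSO, PEG300 and corn oil by oral gavage 3 times per week, and the MI-883 group of 5 mice received MI-883 at 5 mg/kg in the same vehicle on the same schedule. MI-883 is a small molecule that activates human CAR and antagonises human PXR, and the comparison asked which liver transcripts differ after its repeated dosing. No group with the mouse receptors or without the diet was analysed here, so neither the humanized genes nor the diet vary between the groups.

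Carboxylesterases are serine hydrolases of the endoplasmic reticulum lumen that cleave carboxylic esters, among them triacylglycerols, cholesteryl esters, and ester drugs and prodrugs. In the hepatocyte, some members mobilise stored triacylglycerol for the assembly of very-low-density lipoprotein (VLDL), and others hydrolyse xenobiotics or are secreted into plasma. Mice carry a tandem cluster of Ces1 genes where humans have the single main liver enzyme CES1, so the members are paralogs with partly distinct duties.

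Of the 8 transcripts, Ces1b alone passed the test across all genes and was lower after MI-883, at 0.641 times the control mean. Ces1d, the triacylglycerol hydrolase of the VLDL pathway, had the largest positive estimate, at 1.48 times the control mean, and did not pass (edgeR quasi-likelihood adjusted P = 0.110). Ces1g was estimated slightly higher and Ces3b lower, also without passing, and Ces1c, Ces1e, Ces1f and Ces3a lay close to their control levels. In the same livers, 3 genes of the neighbouring Ces2 group rose. As a description without a test, Ces1d took a larger share of the summed Ces1 and Ces3 level in every MI-883 liver than in any control liver. Shares add to a fixed total, so shares of other members moved with it.

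The 6 Ces1 members lie side by side on the minus strand of chromosome 8 (GRCm38, the assembly also called mm10) within 280.5 kb. In order they are Ces1b (chr8:93056725-93080017), Ces1c (chr8:93099015-93131283), Ces1d (chr8:93166072-93197804), Ces1e (chr8:93201218-93229631), Ces1f (chr8:93256236-93279766) and Ces1g (chr8:93302369-93337209). The Ces3 members lie 11711.4 kb further along on the plus strand, Ces3a at chr8:105048576-105061928 and Ces3b at chr8:105083733-105093929. These spans cover each gene with its exons and introns, and reads counted on a gene came from its exons. Coding sequences ran from 1665 bases in Ces1c to 1716 bases in Ces3a and Ces3b.

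The coding sequences fell into close and distant pairs. Ces3a and Ces3b shared 95.3% of aligned coding bases, and Ces1b and Ces1c shared 90.9%. The other 14 pairs of Ces1 genes shared between 72.1% (Ces1b with Ces1f) and 81.6% (Ces1d with Ces1g), and the 12 pairs of a Ces1 with a Ces3 gene between 57.3% and 59.0%. Close relatives can share reads. Of all 100-base stretches in the transcripts of Ces1b, 1.29% also occurred in Ces1c, while 6.88% of those of Ces3a occurred in Ces3b and 7.04% of those of Ces3b in Ces3a. The study sequenced paired ends of 150 bases. With stretches of 150 bases, 1.56% of those of Ces3a and 1.58% of those of Ces3b were shared, and 0% of those of Ces1b. In Ces1d, Ces1e, Ces1f and Ces1g no 100-base stretch was found in another gene. Levels of Ces3a and Ces3b are therefore the least certain of the 8, since how the counting treated reads that match both genes is not given in the sources used here.

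**Figure D1:**
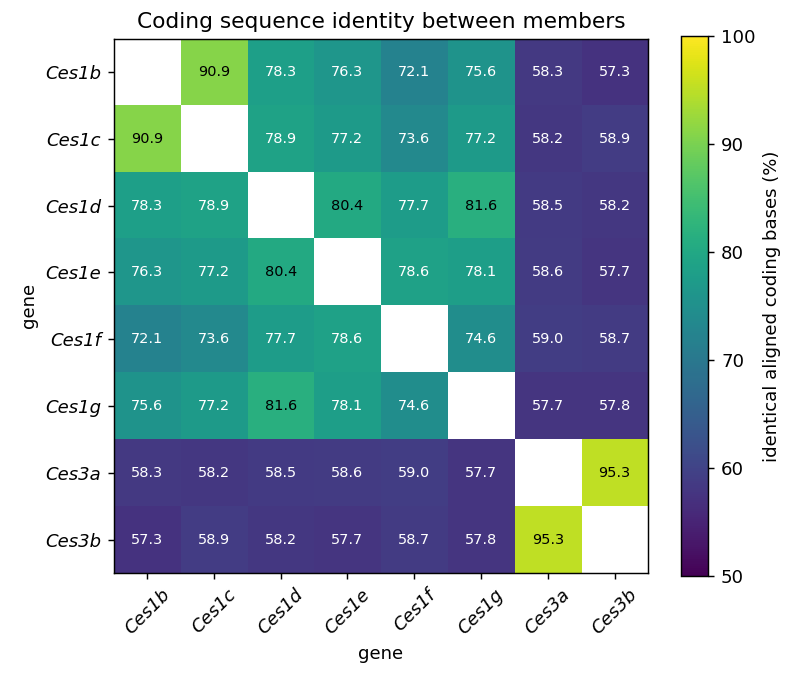
Identity of aligned coding bases (colour scale and printed values, %) between each pair of the 8 genes on both axes, from GENCODE transcripts of GRCm38. The brightest cells are Ces3a with Ces3b (95.3%) and Ces1b with Ces1c (90.9%), and the cells between a Ces1 and a Ces3 gene lie between 57.3% and 59.0%.

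Ces1b and Ces1c were also alike upstream of their starts. Promoter windows of RefSeq (GRCm38.p6) were matched for 5 of the 8 members, namely Ces1b, Ces1c, Ces1e, Ces1g and Ces3b, with 6 windows in all because Ces1b had more than 1 start. The homologous stretches are printed below because Ces1b was the member that passed the test and Ces1c its closest Ces1 relative, which did not pass. Both are written 5′ to 3′ on the minus strand, chr8:93080018-93080161 for Ces1b and chr8:93131371-93131530 for Ces1c, and capitals mark bases that differ between them or have no partner in the other. The Ces1b stretch ends at the base before its most upstream start, and the Ces1c stretch ends 88 bases above its start.
Ces1b: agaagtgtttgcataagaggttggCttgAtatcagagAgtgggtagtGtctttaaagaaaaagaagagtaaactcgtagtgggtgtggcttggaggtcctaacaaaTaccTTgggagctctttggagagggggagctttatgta
Ces1c: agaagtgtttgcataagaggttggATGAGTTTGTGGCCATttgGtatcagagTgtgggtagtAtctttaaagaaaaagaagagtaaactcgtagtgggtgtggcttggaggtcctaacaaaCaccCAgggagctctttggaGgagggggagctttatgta
Of 144 aligned bases, 137 were identical and 7 differed, and Ces1c held 16 further bases with no partner in Ces1b. In the window of the other, more downstream Ces1b start, 208 of 219 bases aligned with Ces1c were identical. For Ces1b with Ces1g it was 67.9% of 137 aligned bases in that window. That window reaches past the most upstream Ces1b start, so part of it is transcribed from there.

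4 short words were searched on both strands of the 300-base windows. The word AGGTCA, the half-site letters of many nuclear receptors, occurred in none of the 6 member windows and in 16.3% of all 32851 windows. The related word AGTTCA occurred among the members in the windows of Ces1b, with 1 copy, and in 4597 of the 32851 windows. In the printed Ces1b stretch and its Ces1c partner neither word occurs, since the Ces1b copy lies further upstream. TATAAA, the letters of the TATA box, was found in the windows of Ces1g and Ces3b and in 13.6% of all windows. CCAAT was found in the windows of Ces1b, Ces1c, Ces1g and Ces3b and in 37.4% of all windows. These matches describe the letters in the windows and nothing about the binding of a factor.

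Library totals lay between 23513665 and 36221514 counts, with medians of 31734138 for control and 24581671 for MI-883 livers. The lowest member, Ces1b, was counted between 813 and 2308 times in every liver, so depth did not limit any of the 8. The treatment was visible in Cyp2b10, the classical CAR target, which rose by 4.80 on the log2 scale (edgeR adjusted P = 3.6e-07). The 8 hepatocyte markers, among them the albumin gene Alb, summed to between 76345 and 88213 CPM (counts scaled by TMM to a common library size) in control livers and to between 64413 and 79719 in MI-883 livers. 7 of the 8 estimates were below 0, and none passed in edgeR or DESeq2. An unadjusted edgeR P under 0.05 was reached by 3 of the 8 and by 15.6% of all tested genes.

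Levels of the 8 genes were compared per kilobase of exon. In control livers Ces1c, which codes for the esterase that mouse liver secretes into plasma, was the most abundant at 1166 ± 150.4 CPM per kb (SD, n = 5). Ces3a followed at 696 ± 81.1 and Ces1d at 524 ± 98.7 CPM per kb. Ces3b (181 ± 19.9), Ces1f (157 ± 21.8), Ces1e (140.4 ± 18.2) and Ces1g (132 ± 13.4) lay close together, and Ces1b was the lowest at 28.3 ± 4.30 CPM per kb. In this order the control livers of neighbouring genes did not overlap between Ces1c and Ces3a, between Ces1d and Ces3b, and between Ces1g and Ces1b, while the other neighbours overlapped. With the longest transcript as length, Ces1f (7.09% of the summed level) stood above Ces3b (5.16%) in control livers. By CPM, Ces1c stood at the 99.7th percentile of the tested genes in control livers, Ces3a at the 99.5th, Ces1d at the 99.2nd and Ces1b at the 80.1st. Most of the summed level of the 8 genes thus came from Ces1c, Ces3a and Ces1d.

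After MI-883 the order by mean was Ces1c (1091 ± 215 CPM per kb), Ces1d (775 ± 151), Ces3a (745 ± 103), Ces1g (156 ± 11.5), Ces1f (153 ± 21.3), Ces3b (140.4 ± 34.8), Ces1e (127 ± 13.6) and Ces1b (18.1 ± 1.73). Ces1d and Ces3a overlapped, as did most neighbours, and a gap without overlap was left between Ces3a and Ces1g and between Ces1e and Ces1b. The order depended on the length used. With the longest transcript as length, Ces3a made up 24.1% of the summed level in MI-883 livers and Ces1d 22.9%. Ces1f then made up 6.60% and Ces1g 3.97%. The summed level of the 8 genes was 3026 ± 309 CPM per kb in control livers (2619.5 to 3404) and 3205 ± 512 in MI-883 livers (2578 to 3777), so the MI-883 range enclosed the control range.

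Ces1b encodes a carboxylesterase of this family that is less well studied than its neighbours. Its levels in the control livers were 43.7, 53.5, 54.7, 66.8 and 59.3 CPM for replicates 1 to 5. In the MI-883 livers they were 37.2, 40.5, 31.7, 35.4 and 33.4 CPM. Every MI-883 liver lay below every control liver, the nearest being 40.5 against 43.7 CPM. The mean fell from 55.6 ± 8.45 to 35.6 ± 3.41 CPM (SD, n = 5 per group), a log2 fold change of −0.64 (SE 0.105, 95% interval −0.87 to −0.41, edgeR quasi-likelihood test with Benjamini-Hochberg adjustment, adjusted P = 0.0108). An exact two-sided permutation test on log2 CPM returned P = 0.00794, the smallest that 5 against 5 livers allow. In bulk liver, fewer cells that express a gene and less of its RNA per cell cannot be told apart.

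Ces1b was 1 of 8 members called, and of all 13219 tested genes 1.03% were called, 0.265% as lower and 0.764% as higher. By size of change it ranked 7th among the 35 genes called lower. Groups without overlap, with MI-883 below control, were found for 1 of 8 members and for 1.93% of all tested genes. MI-883 livers all above control livers were found for no member and for 2.05% of all tested genes, and either case for 3.98%. The call held in each of the 10 fits that left out a single liver, with adjusted P between 0.00218 and 0.0382 (edgeR). Over all 8 members the median log2 fold change was −0.066, with 3 estimates above and 5 below 0, and the median of all tested genes was 0.0045.

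**Figure D2:**
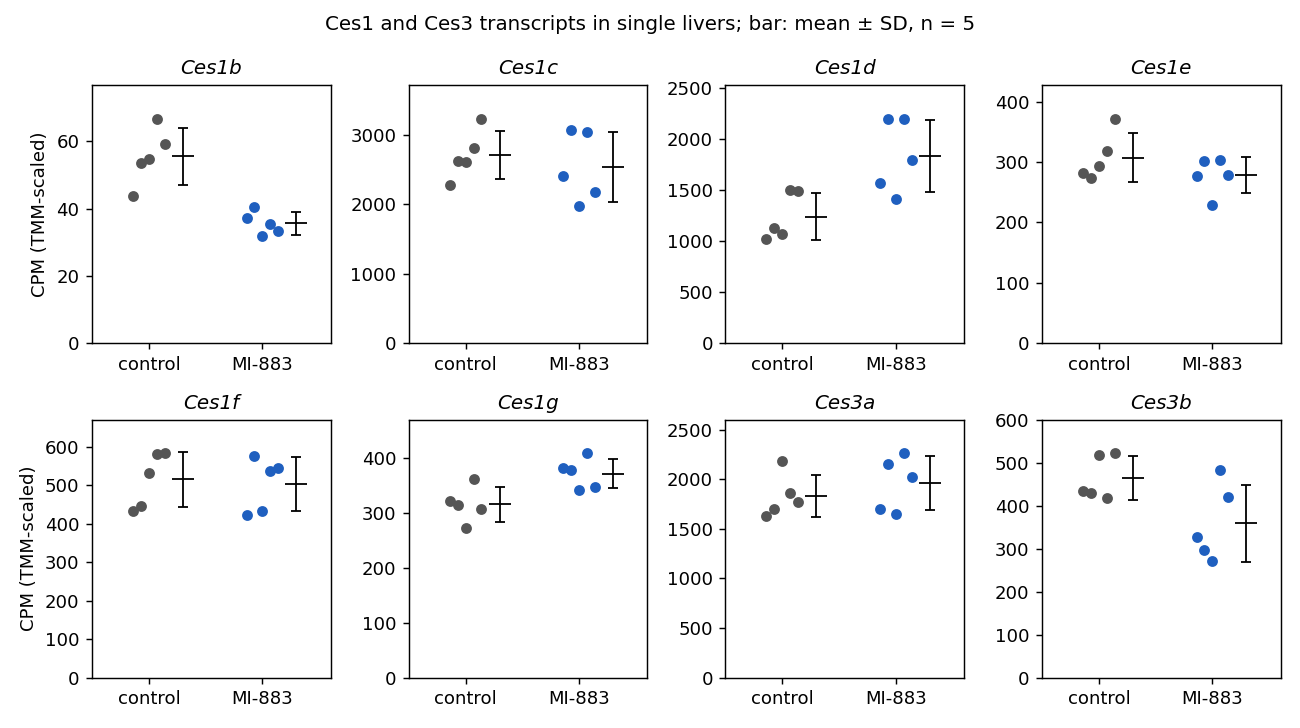
Levels of the 8 genes (y axis, CPM scaled by TMM, each panel with its own scale from 0) in control livers (grey) and MI-883 livers (blue), each point 1 liver, with horizontal bars for the mean and whiskers for the SD (n = 5). For Ces1b the MI-883 livers, between 31.7 and 40.5 CPM, all lie below the control livers, while in the other 7 panels the groups overlap.

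Ces1d is the hydrolase that releases stored fat for VLDL assembly. Its control levels were 1019, 1129, 1071, 1497 and 1491 CPM for replicates 1 to 5. Its MI-883 levels were 1572, 2203, 1416, 2195 and 1793 CPM. Only MI-883 replicate 3 lay within the control range, below control replicates 4 and 5. The mean of 1241 ± 234 CPM in control livers stood against 1836 ± 358 CPM after MI-883, a log2 fold change of 0.56 (SE 0.153, 95% interval 0.23 to 0.90) that did not pass (edgeR unadjusted P = 0.00275, adjusted P = 0.110). Permuting the labels gave an exact two-sided P of 0.0317.

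The call on Ces1d depended on the tool and the scaling. It passed with DESeq2 (adjusted P = 0.0124), which called 3.50% of all tested genes, 2.20% as higher and 1.30% as lower. It also passed in edgeR with 1 surrogate variable as a covariate (adjusted P = 0.00344, 1.92% of all genes called, 1.47% as higher and 0.454% as lower) and with scaling to total counts (adjusted P = 0.0307, 1.05% called, 0.832% as higher). In none of the 10 edgeR fits without a single liver did it pass, with estimates between 0.49 and 0.64 and adjusted P between 0.0853 and 0.217. The direction was the same in all of these fits.

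Ces1g encodes a hepatic enzyme that takes part in hydrolysis of neutral lipids and in the control of lipid synthesis. Its levels were 322, 315, 273, 362 and 307 CPM in control livers and 383, 378, 343, 409 and 348 CPM in MI-883 livers. All 5 MI-883 livers lay above the control median, and control replicate 4, the highest of its group, exceeded MI-883 replicates 3 and 5. The means were 316 ± 32.1 and 372 ± 27.3 CPM, a log2 fold change of 0.24 (SE 0.0852, 95% interval 0.052 to 0.42, edgeR adjusted P = 0.210) with an exact permutation P of 0.0238. With DESeq2 the adjusted P was 0.111.

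Ces1c, the plasma esterase, was measured at 2278, 2617, 2608, 2809.6 and 3232 CPM in control livers. In MI-883 livers it was measured at 2410.3, 3069.6, 1979, 3045 and 2173 CPM. The groups overlapped, with the lowest value in MI-883 replicate 3 and the highest in control replicate 5. The log2 fold change was −0.10 (SE 0.139, 95% interval −0.40 to 0.20, edgeR adjusted P = 0.774), so the interval leaves room for a moderate decrease or a small increase.

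Ces1e encodes the esterase egasyn, which holds β-glucuronidase in the endoplasmic reticulum, and Ces1f a triacylglycerol hydrolase linked to lipid droplets. Ces1e ranged from 273 to 372 CPM in control livers and from 229 to 303 CPM after MI-883, with a log2 fold change of −0.15 (95% interval −0.36 to 0.074, edgeR adjusted P = 0.518). Ces1f ranged from 434 to 583 CPM and from 424 to 577 CPM, with a log2 fold change of −0.036 (95% interval −0.29 to 0.22, edgeR adjusted P = 0.910). The sign of the Ces1f estimate turned with the scaling, to 0.0075 with total counts. For both genes the groups overlapped.

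Ces3a and Ces3b, the liver members of the Ces3 group with near-identical sequence, had estimates of opposite sign, and their difference was not tested. Ces3a ranged from 1633 to 2179.7 CPM in control livers and from 1647 to 2260.0 CPM in MI-883 livers, with a log2 fold change of 0.10 (95% interval −0.15 to 0.34, edgeR adjusted P = 0.712). Ces3b was measured at 435, 429.8, 519, 419.7 and 523 CPM in control livers and at 328, 297, 271, 484 and 420.5 CPM in MI-883 livers. MI-883 replicates 1, 2 and 3 lay below every control liver, and replicates 4 and 5 lay within the control range. The log2 fold change of Ces3b was −0.37 (SE 0.147, 95% interval −0.69 to −0.051), which did not pass (edgeR unadjusted P = 0.0264, adjusted P = 0.255), with an exact permutation P of 0.0635. An unadjusted P under 0.05 was reached by 4 of the 8 members, Ces1b, Ces1d, Ces1g and Ces3b, and by 15.6% of all tested genes.

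**Figure D3:**
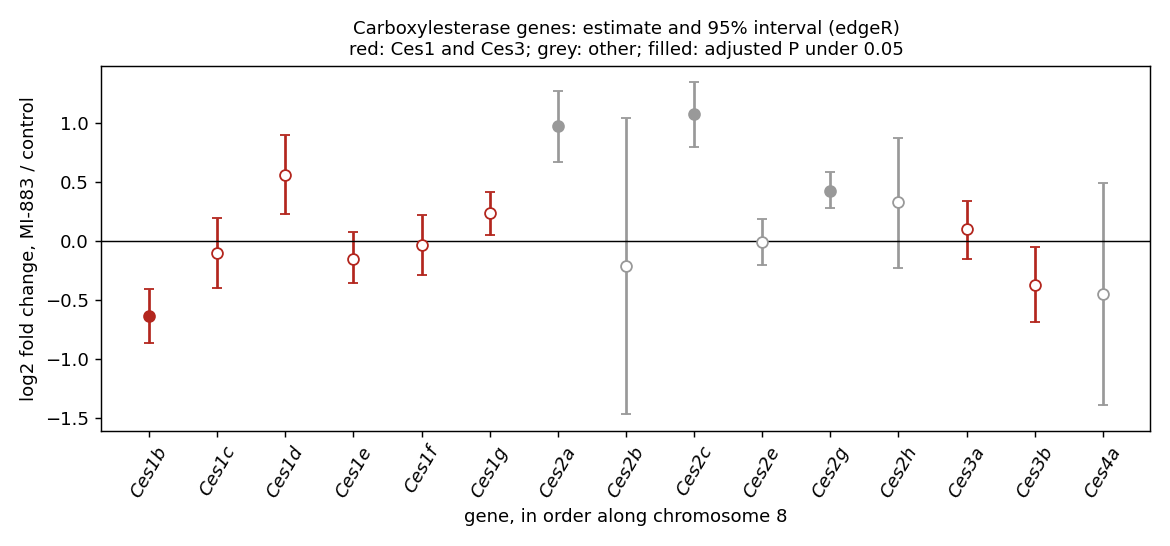
Log2 fold change of MI-883 against control (y axis) with its 95% interval from edgeR for the tested carboxylesterase genes (x axis, in order along chromosome 8), the Ces1 and Ces3 genes in red, the other genes in grey, and filled points for adjusted P under 0.05. The filled points are Ces1b at −0.64 and, among the Ces2 genes, Ces2a at 0.98, Ces2c at 1.08 and Ces2g at 0.43.

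The members were low or high together in certain livers of a group. MI-883 replicate 3 was the lowest of its group in 7 of the 8 genes, and control replicate 1 was the lowest of its group in 5. MI-883 replicates 2 and 4 held the highest value in 4 genes each, and control replicate 5 in 4. The summed CPM of the 8 genes ran from 6445 in control replicate 1 to 8336 in control replicate 5, and from 6347 in MI-883 replicate 3 to 9267 in MI-883 replicate 4. The summed pericentral hepatocyte markers followed the same livers, and most of that sum came from Cyp2e1. The summed pericentral markers were 10529, 13165, 12909, 14021 and 15623 CPM in control replicates 1 to 5 and 12193, 14565, 10775, 16122 and 13795 CPM in MI-883 replicates 1 to 5. They were thus lowest and highest in the same livers as the summed members, and the hepatocyte markers were also at their lowest, 64413 CPM, in MI-883 replicate 3. In control livers, however, the hepatocyte markers were lowest in replicate 2 (76345) and highest in replicate 4 (88213), and after MI-883 highest in replicate 2 (79719). The periportal markers were lowest in control replicate 1 (4948) but highest in control replicate 3 (7990.2). After MI-883 they were lowest in replicate 1 (5676) and highest in replicate 2 (6431). The pattern was thus shared by the pericentral sum, and only in part by the other hepatocyte lists.

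Markers of other cells differed between the same livers. The summed CPM of 6 cholangiocyte (bile duct cell) markers was 117, 73.0, 27.4, 34.5 and 25.0 in control replicates 1 to 5 and 151, 52.7, 190.1, 35.1 and 52.4 in MI-883 replicates 1 to 5. It was highest in control replicate 1 and MI-883 replicates 3 and 1, and most of it came from Spp1. The 8 stellate cell and fibroblast markers summed to between 236 and 384 CPM in control livers and between 276 and 459 CPM after MI-883, the highest in MI-883 replicate 1. All 5 tested cholangiocyte markers had estimates above 0, with a median log2 fold change of 0.55, as had 7 of the 8 stellate markers, with a median of 0.27. None of these markers passed in edgeR without a covariate or in DESeq2. An unadjusted edgeR P under 0.05 was reached by 1 cholangiocyte and 3 stellate markers, and by 15.6% of all tested genes. With 1 surrogate variable, the stellate marker Col3a1 was called higher (log2 fold change 0.61, edgeR adjusted P = 0.0424). Cftr of the cholangiocyte list was below the count minimum, and the part of these cells in the members' levels was not tested. With these 3 livers left out, a choice made after seeing the data, Ces1b was lower by a log2 fold change of −0.69 (edgeR adjusted P = 0.0107) and Ces1d was estimated at 0.67 (adjusted P = 0.0691).

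Sums of the remaining cell type markers overlapped between the groups. Kupffer cell and leukocyte markers summed to between 194 and 287 CPM in control livers and between 151 and 337 CPM after MI-883. Endothelial markers summed to between 118 and 164 CPM in control livers and between 131 and 185 CPM after MI-883. Of the 7 endothelial markers, 5 estimates were above 0, with a median of 0.19. An unadjusted edgeR P under 0.05 was reached by 3 of them, against 15.6% of all tested genes, and none was called by edgeR or DESeq2. Of the 5 adipocyte markers 2 were tested, 1 with an unadjusted edgeR P under 0.05 and none called. Adipoq and Plin1 reached 0 counts in some livers. Of the 8 pericentral hepatocyte markers, 3 had an unadjusted P under 0.05 and none was called by edgeR without a covariate. Glul was called higher by DESeq2 (log2 fold change 0.27, edgeR adjusted P = 0.155, DESeq2 adjusted P = 0.0128). With 1 surrogate variable, Tbx3 was called higher (log2 fold change 0.54, edgeR adjusted P = 0.0330). Of 8 periportal markers, Hal, the histidine ammonia lyase, fell by 0.46 on the log2 scale (edgeR adjusted P = 0.0264). This call was lost in 7 of the 10 fits without a single liver. In the periportal list 5 markers had an unadjusted edgeR P under 0.05, 6 estimates were below 0 and the median was −0.29. In the pericentral list 5 estimates were above 0 and the median was 0.21. The part of any shift between liver zones in the members' levels was not tested.

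Because livers differed in the summed level, each member was also expressed as a share of the summed level per kb of the 8 genes in its own liver, as a description without a test. Ces1c made up 38.5 ± 1.71% in control livers (36.9 to 40.9) and 33.9 ± 2.29% in MI-883 livers (30.4 to 35.9). Ces1d made up 17.2 ± 1.86% (14.9 to 19.6) and 24.1 ± 1.04% (22.8 to 25.3). Neither share overlapped between the groups, with Ces1c below and Ces1d above control. Ces1e went from 4.64 ± 0.289% to 3.99 ± 0.282% and Ces1b from 0.934 ± 0.0795% to 0.573 ± 0.0680%, again without overlap. The shares of Ces3a (23.1 ± 2.74% and 23.3 ± 1.25%) and of the remaining 3 genes overlapped. Shares add to a fixed total, so a larger share of an abundant gene lowers the others, and the 4 shares without overlap are not separate results.

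**Figure D4:**
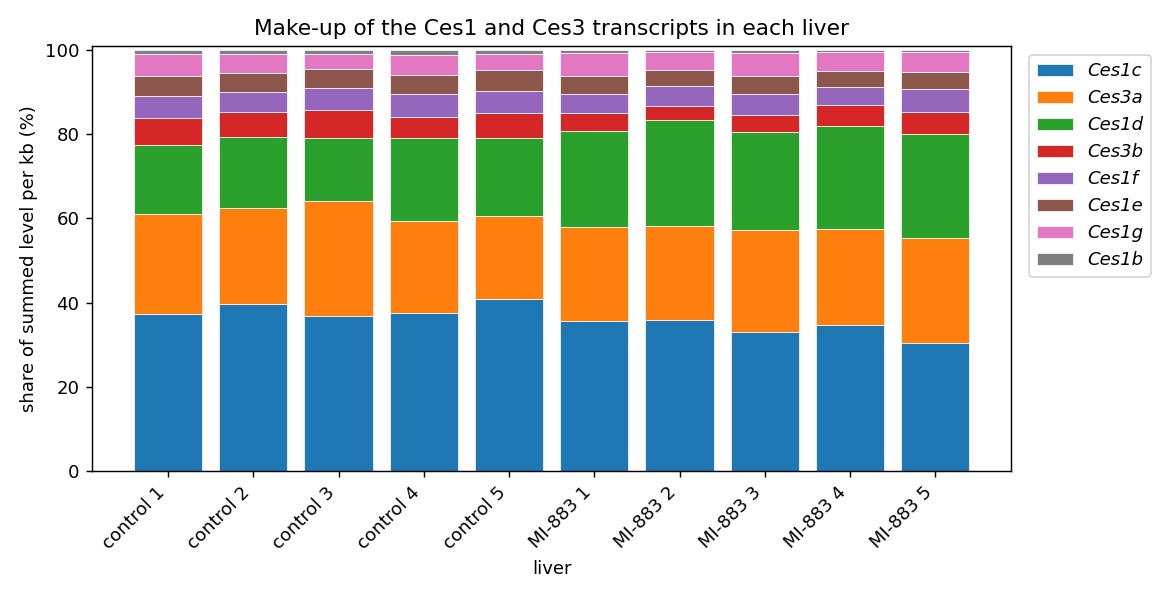
Share of each gene (colours) in the summed level per kb of the 8 genes (y axis, %), 1 bar per liver (x axis). The green segment, Ces1d, spans 14.9 to 19.6% of the control bars and 22.8 to 25.3% of the MI-883 bars, and the blue segment, Ces1c, is shorter in every MI-883 bar than in any control bar.

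Ratios between related genes of 1 liver, chosen after their values were seen and not tested, compare genes without the shared level of a liver. Ces1d stood at 0.439, 0.423, 0.403, 0.522 and 0.452 times Ces1c per kb in control livers and at 0.639, 0.704, 0.702, 0.707 and 0.809 times Ces1c in MI-883 livers. Every MI-883 liver, replicate 3 included, lay above every control liver. Ces1b stood at 0.0243 ± 0.00246 times its closest relative Ces1c in control livers (0.0217 to 0.0281) and at 0.0169 ± 0.00220 in MI-883 livers (0.0137 to 0.0189). Ces3b stood at 0.262 ± 0.0277 times Ces3a in control livers (0.231 to 0.303) and at 0.188 ± 0.0326 in MI-883 livers (0.141 to 0.219). In both close pairs the ratio did not overlap between the groups, although Ces1c and Ces3a themselves overlapped. The level and the share of Ces3b also overlapped between the groups. Ces1b alone already lay without overlap, and the Ces3 ratio depends on how reads that match both genes were counted. How often ratios of other gene pairs are free of overlap was not counted.

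**Figure D5:**
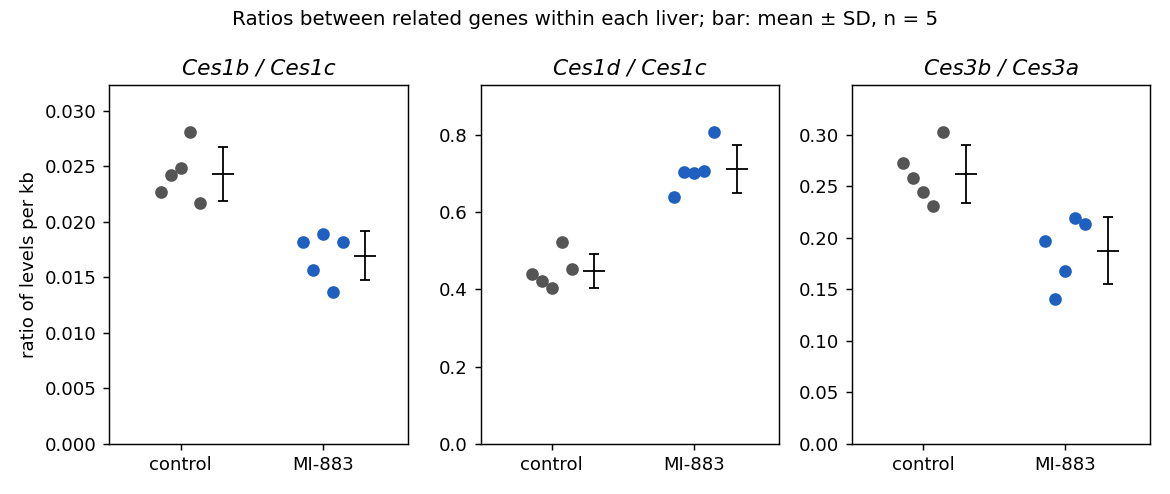
Ratio of the levels per kb of Ces1b to Ces1c, Ces1d to Ces1c and Ces3b to Ces3a (y axis, from 0) in control (grey) and MI-883 livers (blue), each point 1 liver, with mean and SD bars (n = 5). In each panel the groups do not overlap, with MI-883 livers between 0.639 and 0.809 against 0.403 to 0.522 in control livers for Ces1d to Ces1c.

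The pattern of Ces1b over the 10 livers was set beside those of 7787 genes with a mean of at least 10 CPM, by the root mean square difference of standardised log2 CPM. The 3 nearest genes were Nit2 (0.258, with log2 fold change −0.31), Golt1a (0.271, with −0.38) and Paics (0.284, with −0.28), none of which passed the edgeR test (adjusted P between 0.0606 and 0.0849). The nearest other member was Ces1e, at 0.850 and rank 1321. The measure covers both groups, so for a gene whose groups do not overlap it ranks genes largely by the same group difference. For the other members, which were not called, the nearest member stood between rank 38 (Ces1d, for Ces1g) and rank 740 (Ces1e, for Ces3b).

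Of the 12 other carboxylesterase genes considered, 10 were listed and 7 tested, and 3 of these were called higher and none lower. Ces2a, a drug and lipid ester hydrolase of the Ces2 group, rose from 642 ± 51.6 to 1263 ± 294 CPM (log2 fold change 0.98, edgeR adjusted P = 0.00463). Ces2c, a long-known drug-inducible esterase, rose by 1.08 on the log2 scale (adjusted P = 0.000859), and Ces2g by 0.43 (adjusted P = 0.0132). Each of the 3 had all 5 MI-883 livers above all control livers. Ces2e differed little between the groups (371 ± 18.8 against 372 ± 47.7 CPM, log2 fold change −0.0054, adjusted P = 0.986), and the sign of this estimate turned to 0.043 with total counts. In the main edgeR test, with TMM scaling and no covariate, no Ces1 or Ces3 gene was called higher, although Ces1d was estimated at 0.56. Ces1d was called higher with DESeq2, total counts and the surrogate variable. The difference between the groups of genes was not tested.

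The remaining genes of the Ces1 cluster were close to absent from these libraries. Ces1a was counted between 0 and 10 times in control livers and between 1 and 14 times in MI-883 livers, and Ces1h at most 4 times in any liver, both below the count minimum. Ces2f gave a single count over all 10 livers. Ces5a and Ces2d-ps were not analysed here.

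Genes of related function were read from lists chosen with earlier results known, and none of them passed the main edgeR test. The unadjusted edgeR P was under 0.05 for 3 genes of VLDL assembly and lipid droplets and 1 of retention and anchoring. The same held for 5 genes of lipid, ester and drug hydrolysis and 3 of the transcription factors. Of all tested genes, 15.6% had such a P. Of 16 genes of VLDL assembly and lipid droplets, 10 estimates were above and 6 below 0, with a median log2 fold change of 0.06. Of 9 genes of retention in the endoplasmic reticulum and microsomal partners, 5 were above 0, among them Gusb, the β-glucuronidase that egasyn binds, at 0.22 (adjusted P = 0.210). Of 23 other genes of lipid, ester and drug hydrolysis, 13 were above and 10 below 0, with a median of 0.046. The hepatic lipase gene Lipc came nearest to the threshold, at −0.31, with all 5 MI-883 livers below the control livers. It did not pass in edgeR (adjusted P = 0.0598) and was called lower by DESeq2 (adjusted P = 0.00240). Of 15 liver transcription factor genes, 4 were above and 11 below 0, with a median of −0.079, and Hnf4a, the main regulator of hepatocyte identity, was at −0.0030 (adjusted P = 0.993). DESeq2 also called 2 genes of the VLDL list higher (Pdia4 and P4hb), 2 of the hydrolysis list higher (Abhd6 and Pon3) and 1 transcription factor gene lower (Cebpa). Abhd6 was also called higher by edgeR with total counts (adjusted P = 0.0481) and with 1 surrogate variable (adjusted P = 0.0237).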

How the data were processed

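The authors trimmed reads with fastp 0.23.0, aligned them to the mouse genome (mm10) with STAR and counted them per gene with featureCounts. The deposited values are raw read counts, not normalized, with genes given as Entrez numbers. Strand setting, annotation and treatment of multi-mapped reads are not given in the sources used here. Of 16647 listed genes, 16644 were matched to RefSeq (GRCm38.p6).

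Livers were grouped by the treatment in their labels (5 control, 5 MI-883), each library being another animal. Replicates differed by more than sampling noise (chi-square per degree of freedom between 22.4 and 65.9). A gene was tested where its 10 livers together held 60 counts or more, by the quasi-likelihood test of edgeR 4.0.16 (R 4.3.3) after TMM scaling, with the treatment and no covariate. P values were adjusted after Benjamini and Hochberg over all tested genes, and 0.05 was the threshold. The study used DESeq2, here an alternative (1.42.0). CPM were scaled by TMM, and permutation tests used log2 CPM with a prior count of 2. Levels per kb used the union of exons in GENCODE (GRCm38). Coding sequences, in place of the planned proteins, were aligned with Biopython 1.88. Other alternatives were DESeq2 size factors, total counts, other count filters, a replicate block, a surrogate variable (sva 3.50.0) and leaving out each liver. Scripts were tested on simulated data.

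The members, lists and tests were chosen with earlier results of these data known. All 8 members were named. Of the other lists, genes with an adjusted P under 0.05 were named, together with Ces1 and Ces2 relatives, Cyp2b10, and the 3 genes nearest in pattern to a called member. Lipc, Pdia4, P4hb, Abhd6, Pon3, Cebpa, Gusb, Hnf4a, Glul, Tbx3, Col3a1, Cyp2e1, Alb, Cftr, Spp1, Adipoq and Plin1 were named after their values were seen.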

Additional observations from a re-analysis of the deposited data

How the results depend on the processing

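Ces1b was called in all 18 other fits and in that without 3 livers, which was added after seeing the data. Genes called over the whole table numbered 136, and 463 with DESeq2, 254 with 1 surrogate variable, 89 with the replicate block and between 62 and 208 without a single liver (208 without control replicate 1 and 62 without MI-883 replicate 5). The replicate numbers did not pair the livers (correlations between −0.121 and 0.36, no liver nearest to its own number), and the block kept Ces1b at an adjusted P of 0.0310 and changed no other member's call. With DESeq2, total counts and the surrogate variable, 2 members were called, Ces1b and Ces1d. Of all tested genes, 3.50% were called with DESeq2, 1.05% with total counts and 1.92% with the surrogate variable. The cause of the added call was not tested. Groups free of overlap were found for 3 members with total counts (Ces1b, Ces1d and Ces1g, against 3.48% of all tested genes) and for between 1 and 2 without a single liver (2 without control replicate 4 or MI-883 replicate 3), against between 4.75 and 6.94% of all tested genes. Without the 3 livers richest in cholangiocyte markers they were found for 2 members and 12.3% of all tested genes, and 109 genes were called. Leaving out MI-883 replicate 3, the one MI-883 liver within the control range of Ces1d, gives this by construction. The estimate of Ces1f turned to 0.0075 with total counts (exact permutation P = 0.937), 0.069 with the surrogate variable, 0.041 without the 3 livers and between −0.092 and 0.02 without single livers (above 0 without control replicate 4 or 5 or MI-883 replicate 1 or 3). That of Ces2e turned to 0.043 with total counts, 0.013 with 60 counts required in every liver, 0.0025 with the replicate block and between −0.043 and 0.072 without single livers. Without single livers Ces2b lay between −0.86 and 0.038 and Ces4a between −0.70 and 0.005. Hal lost its call with the replicate block (−0.46, adjusted P = 0.0630) and in 7 of 10 fits without a liver. With the longest transcript as length, shares in control and MI-883 livers became 0.750 and 0.462% for Ces1b, 3.94 and 3.40% for Ces1e, 7.09 and 6.60% for Ces1f and 3.54 and 3.97% for Ces1g, with 22.9% for Ces1d in MI-883 and 5.16% for Ces3b in control livers. Ces3a, at 24.1% in MI-883 livers, then stood above Ces1d. Ces1f then stood above Ces3b in control livers and above Ces1g in MI-883 livers. With stretches of 150 bases, 0% of Ces1b and Ces1c, 1.56% of Ces3a and 1.58% of Ces3b were shared.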

Other observations

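With 5 livers per group, the 95% intervals of Ces1g (0.052 to 0.42) and Ces3b (−0.69 to −0.051) lay to 1 side of 0 on the log2 scale, while neither gene passed the adjustment over 13219 genes. Transcripts were measured, not esterase protein or activity. All livers came from males of the humanized genotype on the high-fat diet. Reads that match both Ces3a and Ces3b could not be separated here. Among 16 sets of 5 values (8 members in 2 groups), none held a value that stood apart by Dixon's criterion.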
